A study of Mus musculus with 2 samples.

Results

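Among the 575 Jumonji-library cells that passed the filter, 69 were chosen for high levels of Prg2, Prg3 and Epx, the genes of 3 eosinophil granule proteins. The study held 1183 such cells in 2 libraries, 575 from the Jumonji library and 608 from the Renilla library, out of 1303 deposited barcodes. Both libraries are mouse leukaemia cells that carry the MLL-AF9 fusion and Cas9, a nuclease that cuts DNA where a single guide RNA (sgRNA) directs it, and both were grown with mouse interleukin-3 (IL-3) at 10 ng/ml. The Jumonji library carried an sgRNA against the exons for the Jumonji domain of JMJD1C, a histone demethylase family member, and the Renilla library carried an sgRNA against Renilla luciferase, which mice lack. The labels give mouse primary leukaemia as the source. They name no clone, no time after the guide and no animal. Each condition was 1 library, so there was no replicate check and no test between libraries or between groups of cells.

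The members were chosen by a readout. The score of a cell was the sum of its unique molecular identifiers (UMIs, tags that mark single RNA molecules) of Prg2, Prg3 and Epx over all its UMIs, and the 12% of kept cells with the highest scores became members. They are called members here, since most of them had no Prg2 UMI. They were set against 360 Jumonji cells with no UMI of the 3 genes, called the score-negative cells. The remaining 146 cells had a lower score above 0. Levels are UMIs summed over a group of cells divided by all UMIs of that group and scaled to counts per 1000000 (CPM). Because the choice of members used these cells, every difference between the groups is a description. The intervals given are exact 95% intervals of counts or shares. They cover counting error only, not the spread between cells, cultures or guides.

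Eosinophils are granulocytes that store cationic proteins in large secondary granules. Prg2 encodes major basic protein, which forms the crystalline granule core, Prg3 encodes its close homologue, and Epx encodes eosinophil peroxidase, a haem enzyme of the granule matrix. Eosinophil commitment from myeloid progenitors depends on GATA factors acting with C/EBP proteins. IRF8 acts in monocyte and dendritic fates, and is listed here among the eosinophil lineage factors as well. IL-3, IL-5 and GM-CSF act through receptors that share a beta chain.

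Prg2 (ENSMUSG00000027073, chromosome 2, 84980461 to 84983632, plus strand) and Prg3 (ENSMUSG00000027072, chromosome 2, 84988215 to 84993886, plus strand) are neighbours on mouse build mm10. Epx (ENSMUSG00000052234) lies on chromosome 11, 87864000 to 87875536, minus strand. The RefSeq promoters of Prg3 and Epx, from 250 bases before to 50 bases after the annotated start on build GRCm38.p6, are printed because these genes chose the cells, and that of Ear6 because it was the eosinophil granule gene outside the score with the largest difference. Capitals mark GATA words, which were AGATAA, the form AGATAG, the form TGATAA and the form TGATAG, and C/EBP words, which were TTNNGNAAT, the form TTNNGNAAG, the form TGNNGNAAT and the form TGNNGNAAG, on either strand, 5′ to 3′ along the gene.
Prg3, chr2:84987965-84988264, plus strand: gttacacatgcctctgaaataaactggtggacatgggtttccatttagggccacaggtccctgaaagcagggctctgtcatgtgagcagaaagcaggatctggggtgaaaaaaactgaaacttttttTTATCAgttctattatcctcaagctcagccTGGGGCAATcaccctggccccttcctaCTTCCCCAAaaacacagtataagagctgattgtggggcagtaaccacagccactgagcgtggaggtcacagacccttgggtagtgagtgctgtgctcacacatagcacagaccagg
Epx, chr11:87875487-87875786, minus strand: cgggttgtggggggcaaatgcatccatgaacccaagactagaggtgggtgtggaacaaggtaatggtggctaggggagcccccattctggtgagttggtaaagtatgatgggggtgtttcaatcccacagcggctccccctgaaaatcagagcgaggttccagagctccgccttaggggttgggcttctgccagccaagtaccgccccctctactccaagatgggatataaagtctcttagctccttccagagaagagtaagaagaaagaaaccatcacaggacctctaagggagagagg
Ear6, chr14:51853518-51853817, plus strand: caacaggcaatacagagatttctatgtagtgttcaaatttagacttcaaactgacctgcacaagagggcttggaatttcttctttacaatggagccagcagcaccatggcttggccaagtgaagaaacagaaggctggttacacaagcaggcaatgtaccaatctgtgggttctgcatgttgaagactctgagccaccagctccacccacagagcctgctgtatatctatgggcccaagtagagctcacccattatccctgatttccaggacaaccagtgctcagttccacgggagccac
Prg3 held 1 GATA word, whose first base lay at -123 from the start, and 2 C/EBP words at -93 and -66, with no overlap between the kinds. Neither word was found in the windows of Epx and Ear6. Of 32851 mouse promoter windows of this length, 29.8% held a GATA word and 45.4% a C/EBP word. A match is a description of letters and not of binding. The table held no promoter for Prg2.

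The score genes were concentrated in few cells, most of all Prg2. Members had a median score of 236 CPM, from 125 to 19089 CPM, and a median of 5 score UMIs. No member rested on 1 UMI, 7 rested on 2, 31 on 3 to 5, 16 on 6 to 10 and 15 on more than 10. The cells around the threshold were alike: the 3 just inside had 125, 126 and 127 CPM from 4, 3 and 4 UMIs, and the 3 just outside had 119, 114 and 113 CPM from 2, 3 and 2 UMIs. The score therefore falls without a gap from members to the 146 cells below, which had a median of 1 score UMI and at most 4.

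Prg3 was the gene seen in nearly all members. It had a UMI in 66 of 69 members (95.7%), with a total of 381 UMIs. Prg2 had a UMI in 26 members (37.7%) and Epx in 29 (42.0%). UMIs of all 3 genes were found in 10 members, of 2 genes in 32 and of 1 gene in 27, of which 24 had Prg3 alone, 2 Epx alone and 1 Prg2 alone. Most members are thus Prg3-bearing cells with or without a few UMIs of the other genes.

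One cell held much of the Prg2 signal. The highest-scoring member had 119 Prg2, 35 Prg3 and 4 Epx UMIs among 8277 UMIs in all, so it carried 51.1% of the 233 Prg2 UMIs of the library, against 6.52% of the Prg3 and 3.05% of the Epx UMIs. It also had 5 Ear6 UMIs, 1 Siglecf UMI, 4 Cebpe UMIs and none of Ctss, Irf8 or S100a8. The second cell had 34 Prg2, 7 Prg3 and 3 Epx UMIs, and the third had 6, 20 and 11. These 3 cells were shallow, with 8277, 8845 and 10556 UMIs against a member median of 20697. Over the whole libraries Prg2 stood 2.54 higher in the Jumonji library on the log2 scale (2.08 to 3.04), and 1.51 higher (1.00 to 2.04) without that single cell.

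**Figure D1:**
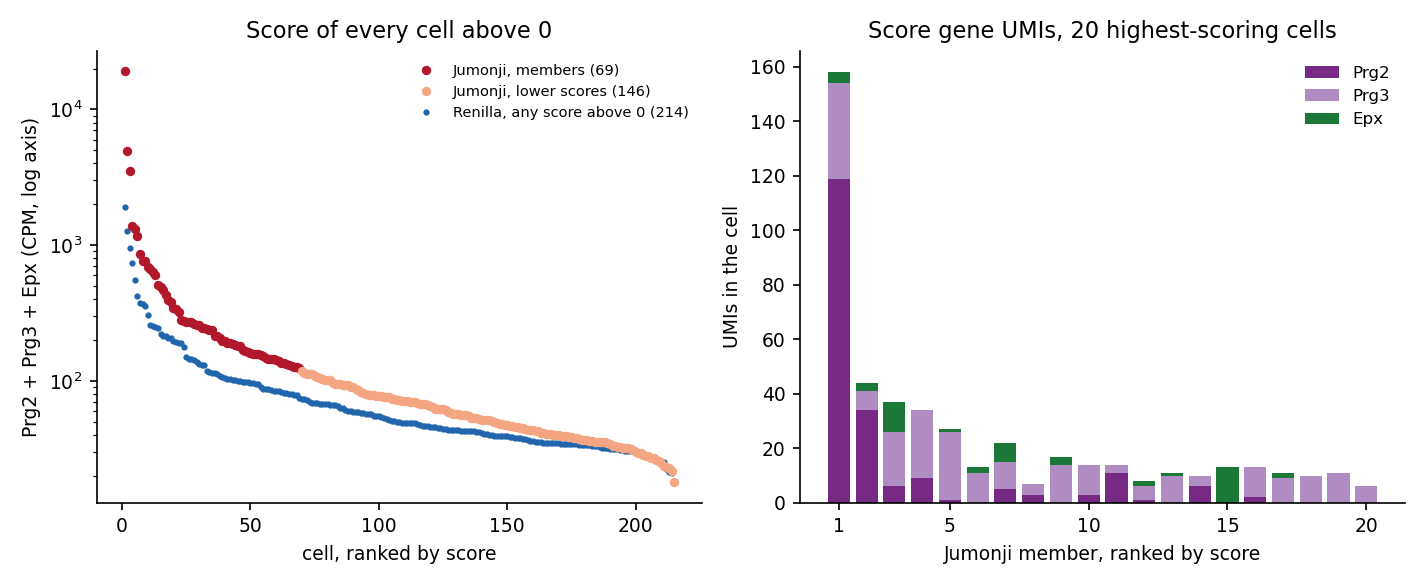
Left, the score (summed CPM of Prg2, Prg3 and Epx, log axis) of every cell above 0, ranked from high to low, for Jumonji members, Jumonji cells below them and Renilla cells. Right, UMIs of each score gene in the 20 highest-scoring Jumonji cells: the first has 158 score UMIs, the second 44, and the scores show no gap at the member threshold.

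How often the 3 score genes were seen in the same cell is given as a description only, since the rule used them. With each kept Jumonji cell thinned at random to 10000 UMIs (520 cells deep enough), Epx had a UMI in 20 of 99 cells with Prg3, or 20.2%, and in 26 of 421 cells without it, or 6.18%. Prg2 had a UMI in 16 of the 99, or 16.2%, and in 6 of the 421, or 1.43%. In the Renilla library, thinned alike, 2 of 93 cells with Prg3 had Epx, or 2.15% (0.262% to 7.55%), against 3.91% (2.37% to 6.04%) of 486 cells without it. For Prg2 the Renilla shares were 4.30% (1.18% to 10.6%) and 1.65% (0.713% to 3.22%), with overlapping intervals.

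Free RNA in droplets can give single UMIs in cells that do not express a gene, and its level was not measured, since no empty droplets were analysed here. Among the 69 Jumonji cells with the highest share of UMIs in Ctss and Wfdc17, which mark another group of cells of the library, 1 cell had a score UMI (1.45%, 0.0367% to 7.81%), and 0 had Prg3 (up to 5.21%), at a median of 11416 UMIs. Among the 69 with the highest share in S100a8 and S100a9, 24 had Prg3 (34.8%, 23.7% to 47.2%), at a median of 16937 UMIs. That is close to the share over all kept Jumonji cells, where 178 of 575 had Prg3 (31.0%, 27.2% to 34.9%), at a median of 22123 UMIs.

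Of the eosinophil genes outside the score, 1 granule gene was higher in members, while most surface receptors were at or near 0, which goes against the label of a mature eosinophil. Ear6 (ENSMUSG00000062148, chromosome 14), an eosinophil-associated ribonuclease that the score did not use, was 4.09-fold higher in members (2.25 to 7.37). It had 23 UMIs in 17 members, or 15.5 CPM, 28 UMIs or 3.79 CPM in the score-negative cells, and 2.28 CPM in the cells between. The groups overlapped: 22 score-negative cells had Ear6 UMIs. At 10000 UMIs per cell it was seen in 17.5% of members and 3.18% of score-negative cells. Without the highest-scoring cell its log2 ratio went from 2.03 to 1.69, and without the 3 highest to 1.44. Ear6 is one of a family of near-identical genes, so the assignment of its UMIs is uncertain. Of the others, Ear2 had 1 UMI in members, and Ear1, Ear10 and Ear14 had none.

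Receptors of mature eosinophils were scarce or absent. Il5ra, the alpha chain that binds IL-5, had 0 UMIs in 69 members, or up to 2.02 CPM with 0 set to 3 counts, and 2 UMIs in the score-negative cells. Ccr3, the eotaxin receptor, and Ptgdr2, a prostaglandin D2 receptor, had none in either group. Siglecf, a sialic acid-binding receptor of eosinophils, had 14 UMIs in members (9.45 CPM) and 50 in score-negative cells (6.77 CPM). Its log2 ratio of 0.48 (-0.49 to 1.36) was within counting error. Il1rl1 and Ltc4s were at 0 in members and Alox15 had 1 UMI. Adgre1 (F4/80) had a log2 ratio of -0.34 (-0.61 to -0.09), Alox5 of 0.34 (-0.06 to 0.74) and Itga4 of -0.33 (-0.97 to 0.26). Among cells with no Ctss UMI, Adgre1 turned to 0.19 (-0.11 to 0.48). None of the 4 surface and lipid mediator genes measured, which means at least 50 UMIs over both groups, was 1.5-fold apart, and 5 of the 10 listed had no UMI in members. Of all 8186 genes measured, 4.02% were at least 1.5-fold higher in members and 10.5% lower. The counts of the other Jumonji gene lists below are to be read beside these shares.

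Of the transcription factors, Cebpe was higher and Irf8 lower in members. Cebpe (ENSMUSG00000052435, chromosome 14, 54710360 to 54712174, minus strand), a C/EBP factor needed for secondary granule genes of neutrophils and eosinophils, was at 931 CPM (883 to 982) in members, 619 CPM in the cells between and 405 CPM (391 to 420) in score-negative cells. That is 2.30-fold higher (2.16 to 2.45). Per cell it ran from 113 over a median of 879 to 2560 CPM in members, and from 0 over 276 to 2455 CPM in score-negative cells. The groups overlapped, but 65 of 69 members lay above the score-negative median. Irf8 (ENSMUSG00000041515, chromosome 8) went the other way, with 33 UMIs or 22.3 CPM in members and 138 CPM in score-negative cells, 6.18-fold lower (4.37 to 9.02). It was found in 18.8% of members and 61.9% of score-negative cells, or 11.1% and 50.6% at equal depth.

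The other 9 measured factors were within 1.5-fold. Gata2 stood at 31.7 against 22.3 CPM, with a log2 ratio of 0.51 (0.01 to 0.98). Gata1 had 4 UMIs in members, Zfpm1, its cofactor FOG1, had 3, and Trib1, which targets C/EBP proteins for degradation, had 3 with a log2 ratio of 1.09 (-1.49 to 3.23), too few to read. Spi1 (PU.1) had a log2 ratio of 0.24 (0.13 to 0.34), Ikzf1 of 0.42 (0.12 to 0.71), Ikzf2 of -0.22 (-0.37 to -0.07) and Xbp1, needed for eosinophil survival during granule loading, of -0.29 (-0.50 to -0.08). Cebpa at 0.12, Cebpb at 0.54, Id1 at -0.10 and Id2 at 0.12 had intervals that held 0. Among 11 measured factors 1, Cebpe, was at least 1.5-fold higher and 1, Irf8, that much lower. The median of 0.12 stood beside -0.05 for all measured genes. Among cells with no Ctss UMI, Xbp1 stood at 0.045 (-0.20 to 0.28) and Ikzf2 at -0.08 (-0.25 to 0.09).

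**Figure D2:**
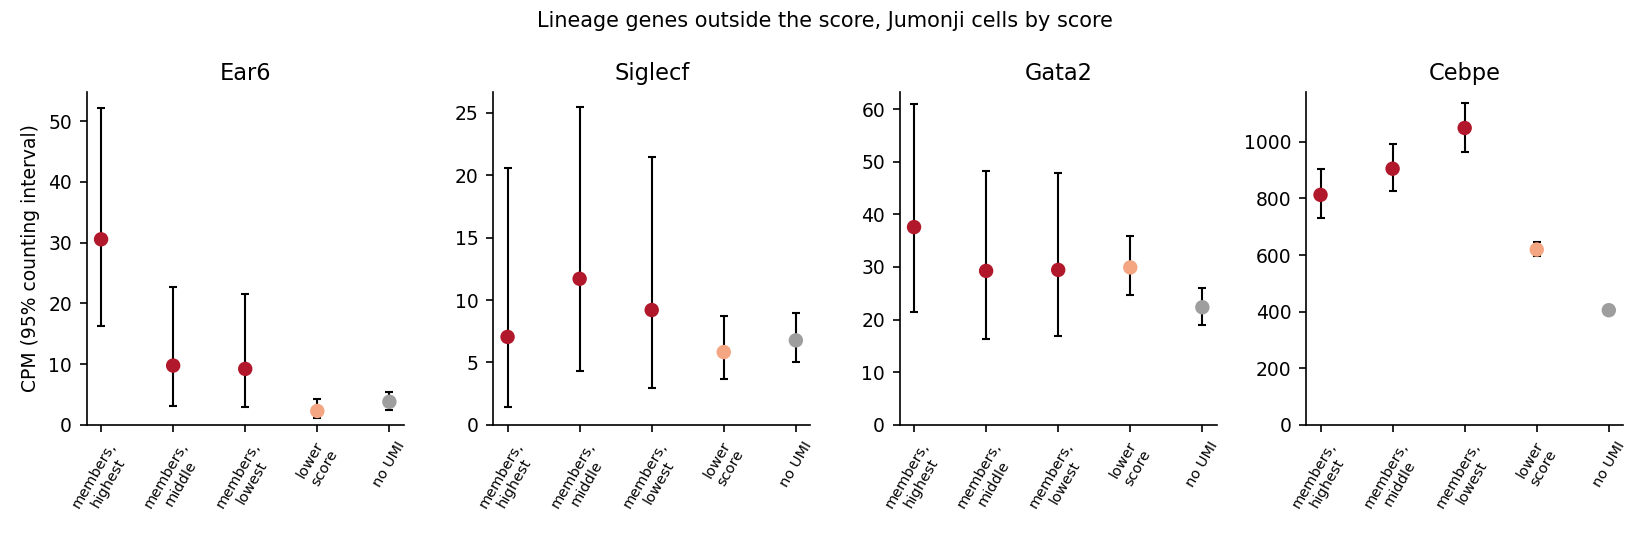
CPM with 95% counting intervals of 4 lineage genes outside the score, for the 69 members in groups of 23 by score, the 146 cells with a lower score and the 360 score-negative cells. Cebpe lies between 813 and 1049 CPM in the 3 groups of members. Ear6 is highest in the 23 top-scoring members, with intervals that overlap between the 3 groups of members, and the intervals of Siglecf overlap throughout.

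Members were not uniform. Ear6 stood at 30.5 CPM (16.3 to 52.2) in the 23 highest-scoring members, with 5 of its 13 UMIs in the top cell. In the middle and lowest 23 it was at 9.75 CPM (3.17 to 22.8) and 9.20 CPM (2.99 to 21.5), from 5 UMIs each. These intervals overlapped that of the highest 23. Cebpe was lowest in the highest-scoring members, at 813 CPM (729 to 903), 905 CPM and 1049 CPM (965 to 1139) from the highest to the lowest 23. S100a8, which encodes a subunit of the neutrophil protein calprotectin, was at 254, 1231 and 269 CPM. Its level was uneven between cells, with a member median of 64.1 CPM and 1 member at 11196 CPM. Ms4a3, a marker of granulocyte-monocyte progenitors, was at 122, 211 and 164 CPM.

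Across all genes, more stood lower in members than higher. Of 6498 genes with at least 100 UMIs over both groups, the score genes left out, 21 (0.323%) were at least 2-fold higher and 131 (2.02%) at least 2-fold lower. The score-negative group was mixed in this respect: 49.7% of its cells had a Ctss UMI, against 8.70% (3.26% to 18%) of members. With every cell that held a Ctss UMI left out of both groups (63 members and 181 score-negative cells remained), 6 genes were higher and 26 lower.

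Among the 12 leading higher genes were Ctsh, Cd63 and Ctse. The list of 16 lysosome and cathepsin genes as a whole had no common direction, with 2 higher, Ctsh and Cd63, 3 lower, Psap at -0.95, Ctsd at -0.86 and Grn at -0.61, and a median of -0.09. Ctsh (cathepsin H, a lysosomal cysteine protease, chromosome 9, 90054152 to 90076089) was at 375 CPM (344 to 407) against 122 CPM, 3.07-fold higher (2.76 to 3.42). It ran from 34.8 over a median of 366 to 1360 CPM in single members and from 0 over 77.7 to 1247 CPM in score-negative cells, and 66 of 69 members lay above the latter median. Cd63, a tetraspanin of granule membranes, was at 2426 against 1135 CPM, 2.14-fold higher (2.05 to 2.22), and all 69 members lay above the score-negative median of 1043 CPM. Ctse, the aspartic protease cathepsin E, was 2.53-fold higher (2.07 to 3.09), at 103 against 40.8 CPM. Among cells with no Ctss UMI the log2 ratios were 1.47 (1.3 to 1.65) for Ctsh, 0.81 (0.75 to 0.87) for Cd63, 1.28 for Ctse and 0.84 (0.74 to 0.94) for Cebpe.

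Hdc, histidine decarboxylase, the enzyme that makes histamine, was at 123 against 56.9 CPM, 2.16-fold higher (1.80 to 2.58), and found in 84.1% of members and 43.6% of score-negative cells. Gm5483 and BC100530, members of the stefin A cluster of cysteine protease inhibitors on chromosome 16, had log2 ratios of 1.28 (1.18 to 1.38) and 1.02 (0.91 to 1.13). With both groups limited to the depths between the members' quartiles they stood at 0.16 and -0.083, so the second turned its sign. Single members held 206 of the members' 1266 Gm5483 UMIs and 197 of their 964 BC100530 UMIs, and these genes are close copies, so their values are uncertain. The chemokine Ccl6 stood at 1.23 (0.95 to 1.52) and Gadd45a, a growth arrest gene, at 1.19 (0.91 to 1.45). Syne1 at 1.13 and Sun2 at 1.35 encode partners that tie the nucleus to the cytoskeleton, and Mtm1 at 1.42 (0.85 to 1.97) encodes a phosphoinositide phosphatase. Without cells that held Ctss, the log2 ratios were 0.82 (0.55 to 1.09) for Hdc, 0.83 for Syne1, 0.70 for Gm5483 and 0.36 for BC100530. Gadd45a stood at 0.99, Sun2 at 1.06, Ccl6 at 1.07 and Mtm1 at 1.16 in that setting. The 12 genes, Cebpe included, were chosen by the interval bound nearest to 0.

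**Figure D3:**
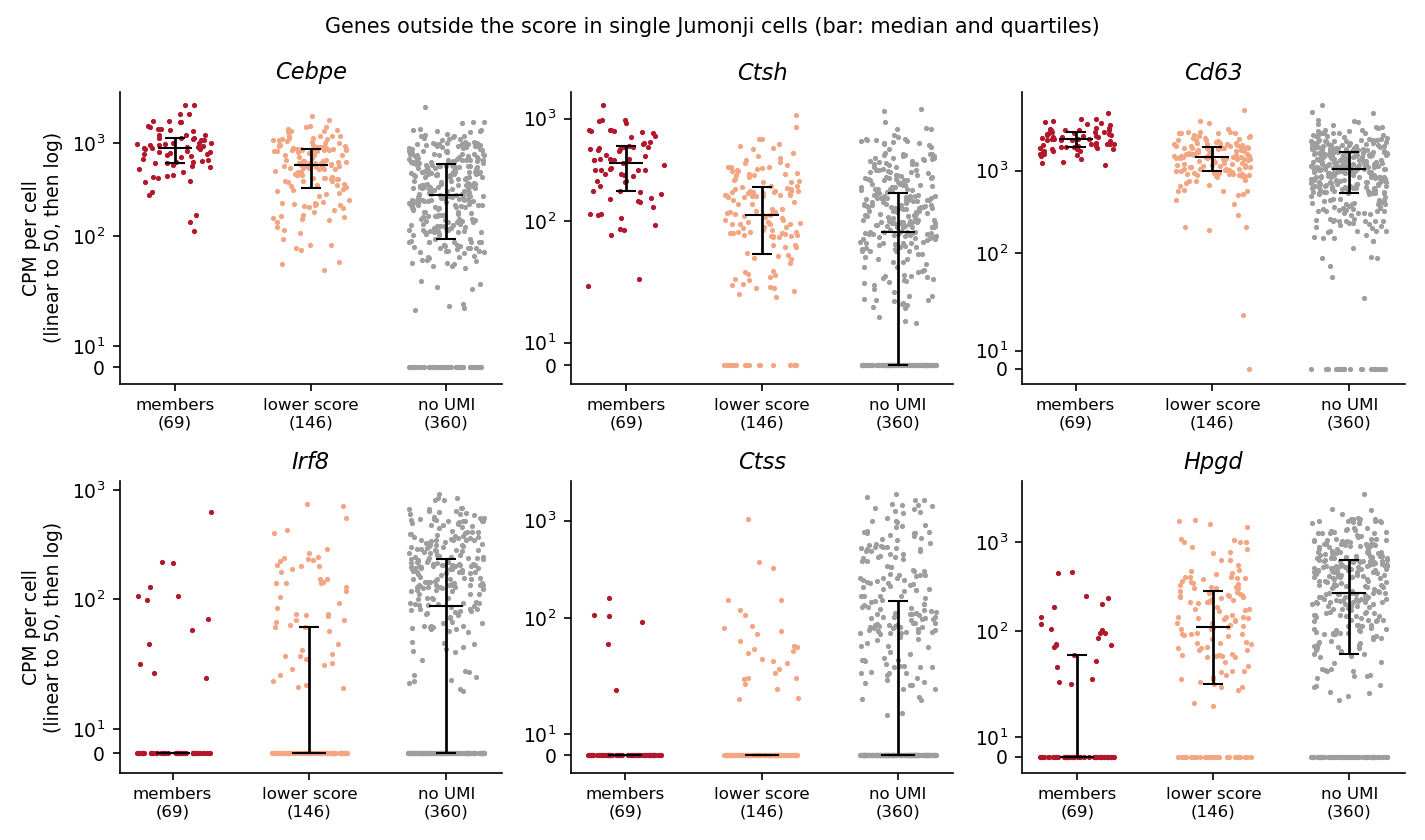
CPM of 6 genes outside the score in each Jumonji cell (axis linear to 50, then logarithmic), with the median and quartiles of each group. Cebpe, Ctsh and Cd63 are shifted up in the 69 members and Irf8, Ctss and Hpgd down, with the ranges overlapping. The 146 lower-scoring cells lie between by the share of cells above the score-negative median. The median of Ctss is 0 in each group, and that of Irf8 is 0 in members and lower-scoring cells.

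Ctss led the lower genes. It encodes cathepsin S, a cysteine protease of antigen-presenting cells, and had 8 UMIs in members, or 5.40 CPM, against 102 CPM, 19.0-fold lower (9.57 to 44.1). S100a4 had 2 UMIs in members and 327 in score-negative cells, a log2 ratio of -5.04 (-8.09 to -3.17). Wfdc17 was 5.62-fold lower (4.66 to 6.84), at 76.3 against 428 CPM, but -0.84 (-1.19 to -0.50) on the log2 scale without cells that held Ctss. Hpgd, which breaks down prostaglandins, was at 53.3 against 433 CPM, 8.12-fold lower (6.49 to 10.3), and 2 of 69 members lay above the score-negative median of 269 CPM. Without cells that held Ctss, Hpgd remained at -2.51 (-2.86 to -2.17) and Irf8 at -2.05 (-2.72 to -1.45).

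The protease inhibitor gene Ctla2a stood at -2.69, but at -0.24 with both groups limited to matched depth. Ckb, a creatine kinase, stood at -3.73, at -1.72 at matched depth and at -0.75 without cells that held Ctss. Pld4 at -2.10, Tsc22d1 at -2.08 and Ctsg were also among them. Dab2, an endocytic adaptor, had 0 UMIs in members and 103 in score-negative cells, 6.89-fold lower with 0 set to 3 counts over the group and at least 5.50-fold lower by the exact interval. Pld4 went to -0.55 among cells with no Ctss UMI.

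**Figure D4:**
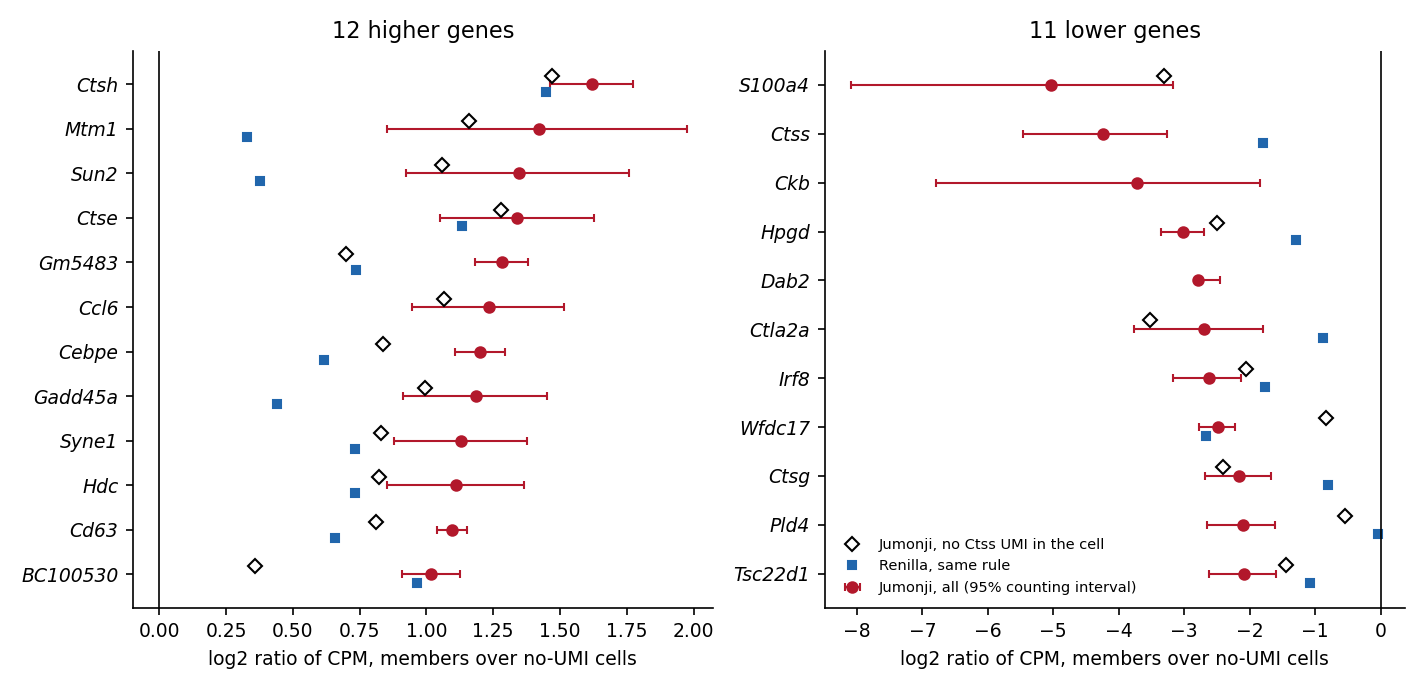
Log2 ratio of CPM, members over score-negative cells, for the 12 higher genes and 11 of the 12 lower ones: circles with 95% counting intervals for all Jumonji cells, diamonds for Jumonji cells with no Ctss UMI, squares for the Renilla library where the gene had at least 50 UMIs. Ctsh and Ctse keep a log2 ratio above 1 in all 3 settings, and BC100530 and Pld4 lie closest to 0 among cells with no Ctss UMI.

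Primary granule genes had no common direction. Among 11 measured primary granule genes, which promyelocytes make, 3 were at least 1.5-fold lower, 1 was higher and the median was -0.06. Ctsg (cathepsin G) was 4.46-fold lower (3.20 to 6.42), at 24.3 against 108 CPM, and Mpo (myeloperoxidase) 2.93-fold lower (2.17 to 4.06), at 30.4 against 89.1 CPM. Among cells with no Ctss UMI both stayed lower, at -2.41 (-2.95 to -1.92) and -1.78 (-2.25 to -1.33). Prtn3 was level at -0.06 (-0.15 to 0.04), Elane stood at -0.37 (-0.48 to -0.27), Ctsc at -0.88 and Ms4a3 at 0.30 (0.09 to 0.50). Nkg7, a granule protein of cytotoxic and myeloid cells, was the higher gene, at 0.83 (0.40 to 1.25), and Prss57 had 0.33 (-0.30 to 0.92). Nkg7 went to 0.32 (-0.12 to 0.76) and Prss57 to -0.19 (-0.87 to 0.44) among cells with no Ctss UMI, so both intervals held 0.

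Of 11 measured secondary granule and neutrophil genes, 1 was 1.5-fold higher and 3 lower, with a median of -0.12. Ngp (neutrophilic granule protein) was at 60.7 against 29.4 CPM, 2.07-fold higher (1.60 to 2.65), although only 21.7% of members held it and 1 member held 30 of its 90 UMIs. Mmp8 stood at -1.57 (-2.55 to -0.73) and Csf3r, the G-CSF receptor, at -2.27 (-5.35 to -0.34) from 2 UMIs. S100a8 at 0.33 (0.22 to 0.43) and S100a9 at -0.12 (-0.26 to 0.02) had no common direction. Of the members, 14 were also among the 69 cells with the highest S100a8 and S100a9 share (20.3%, 11.6% to 31.7%), against 37 of 360 score-negative cells (10.3%, 7.34% to 13.9%). None of the 69 cells with the highest Ctss and Wfdc17 share was a member, and 68 of them were score-negative.

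Many defining markers of other cell types had no UMI in members, but most genes of these lists were too scarce to be measured. Of the 17 monocyte and macrophage genes listed, 9 were below the UMI minimum over both groups. So were 8 of 12 basophil and mast cell genes. For such genes, a lack of UMIs in members cannot show that a cell type is absent. Of 8 measured monocyte and macrophage genes 4 were 1.5-fold lower, Ctss, Ccr2 at -1.68, Csf1r and Cd68, and 1 higher, Fcgr1 at 0.69 (-0.10 to 1.42), with a median of -1.09. Summed over the list, single members ran from 71.5 over a median of 540 to 7633 CPM and score-negative cells from 42.1 over 851.5 to 9975 CPM. Ly86, F13a1, Cx3cr1, C1qa, C1qb and Mrc1 were among 7 of the 17 listed that had no UMI in members. Of 10 genes that an earlier look at this library had picked for its maturing cells, Ctss and Wfdc17 among them, 7 were lower and 1 higher, with a median of -1.08. That list was chosen on these cells and is no independent evidence. Basophil and mast cell genes, which matter because basophils also make Prg2 and histamine, had 4 measured members: Hdc, Kit at -0.29, Cyp11a1 at -1.46 (-2.45 to -0.62) and Cpa3, with 0 against 78 UMIs, at least 4.14-fold lower by the exact interval, with a log2 ratio of -2.38 that was -0.52 at matched depth. Of their defining markers, Mcpt8, a basophil protease, had 1 UMI in members, Ms4a2 had 2, and Prss34, Cpa3 and Fcer1a had 0. Mcpt8 was also scarce in the score-negative cells, with 6 UMIs. The list sum had a median of 133 CPM per member and 63.4 CPM per score-negative cell. Of the 142 CPM summed over members, Hdc made 123. Cyp11a1 went to -0.80 (-1.88 to 0.15) among cells with no Ctss UMI.

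Of 12 dendritic and MHC class II genes 4 were measured, and Cd74 (-3.33) and H2-DMa (-0.87) were lower, while H2-Aa, H2-Ab1 and H2-Eb1 had no UMI in members. The other 8 listed genes were below the UMI minimum over both groups, so a lack of their UMIs in members cannot show absence. No lymphoid gene had a UMI in members, of 11 listed, but the list summed to only 9 UMIs in score-negative cells. Pf4 at 0.09, Itga2b at 0.67 and Cd9 at -0.72 were the measured megakaryocyte genes, and Tfrc at 0.09 the one of the erythroid list. Cd9 turned to 0.13 (-0.31 to 0.56) among cells with no Ctss UMI.

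Of the receptor and signalling genes, the receptor chains were within 1.5-fold. The chains for IL-3, which was in the culture medium, and GM-CSF had log2 ratios of 0.05 (-0.18 to 0.29) for Csf2rb, -0.12 (-0.74 to 0.44) for Csf2rb2, -0.48 (-0.86 to -0.13) for Il3ra and -0.13 (-0.39 to 0.12) for Csf2ra. Il3ra went to -0.27 (-0.68 to 0.12) among cells with no Ctss UMI. Of 12 measured JAK-STAT5 genes, 5 were 1.5-fold lower and none higher, with a median of -0.33, among them Osm at -1.46 (-2.71 to -0.44) and Stat5a at -1.06 (-2.32 to -0.01). Of all measured genes, 10.5% were 1.5-fold lower and 4.02% higher. Ccnd3 stood at -0.01. Jmjd1c itself was at 87.7 CPM (73.3 to 104) in members and 120 CPM (112 to 128) in score-negative cells, against 112 CPM over the Jumonji library and 140 CPM over the Renilla library. Counts of 3′ ends do not show whether the gene was cut. Kdm3a at 0.24 and Kdm3b at 0.06 were within counting error.

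The leukaemia and growth lists, read beside the 4.02% higher and 10.5% lower of all measured genes, are given by their counts. Of 18 measured genes of the MLL-AF9 programme, 1 was higher, Gfi1 at 0.73 (0.08 to 1.34), a transcriptional repressor, and 1 lower, Bcl2 at -1.63 (-2.49 to -0.88), a survival factor. Without cells that held Ctss, Gfi1 went to 0.39 (-0.28 to 1.03) and Bcl2 to -1.49 (-2.45 to -0.66). The median of the 18 genes over all cells was -0.21, with Myb at 0.27 and Hoxa10 at -0.47. Of 28 S phase genes 5 were lower and none higher (median -0.38), such as Ccne2 at -0.92 and Rrm2 at -0.81, while Cdt1 stood at 0.33 and Dtl at 0.26. Of 27 G2/M genes 2 were higher, Cenpf at 0.78 (0.43 to 1.12) and Ube2c at 0.71 (0.55 to 0.88), and 1 lower, Kif23 at -0.73 (-1.78 to 0.18), with Aurkb at -0.51 (median -0.01). No phase was called.

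Of 6 measured stem and progenitor markers 2 were lower and none higher (median -0.38), with Cd48 at -1.12, and Cd27 stood at 0.48 (-0.15 to 1.08). Nearly all members still held Cd34: at least 95.7% of each group of 23 by score had a UMI, at 458 to 484 CPM. In score-negative cells Cd34 was at 647 CPM, with a UMI in 99.2% of cells. Cd48 went to -0.48 (-1.16 to 0.15) among cells with no Ctss UMI. Ifitm1, an interferon-induced membrane protein, was lower at -1.44 (-1.55 to -1.32), with Irf9 at -0.95, Oas1a at 0.33 and Bst2 at 0.01. Among cells with no Ctss UMI, Ifitm1 was at -0.93 (-1.06 to -0.80). Of the phagocyte oxidase subunits Cybb was higher at 0.71 (0.18 to 1.22) and Ncf4 stood at 0.37 and Rac2 at 0.09. Endoplasmic reticulum genes had Hspa5 at -0.66 and Pdia6 at -0.52 against Atf4 at 0.23 and Sec61b at 0.12. Granule biogenesis genes had Rab38 at 0.26, Hps1 at -0.41 and Nbeal2 at -0.61, and none of 12 glycolytic genes was 1.5-fold apart (Gpi1 0.30, Hk2 0.22, Slc2a1 -0.42, Pfkl -0.56).

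**Figure D5:**
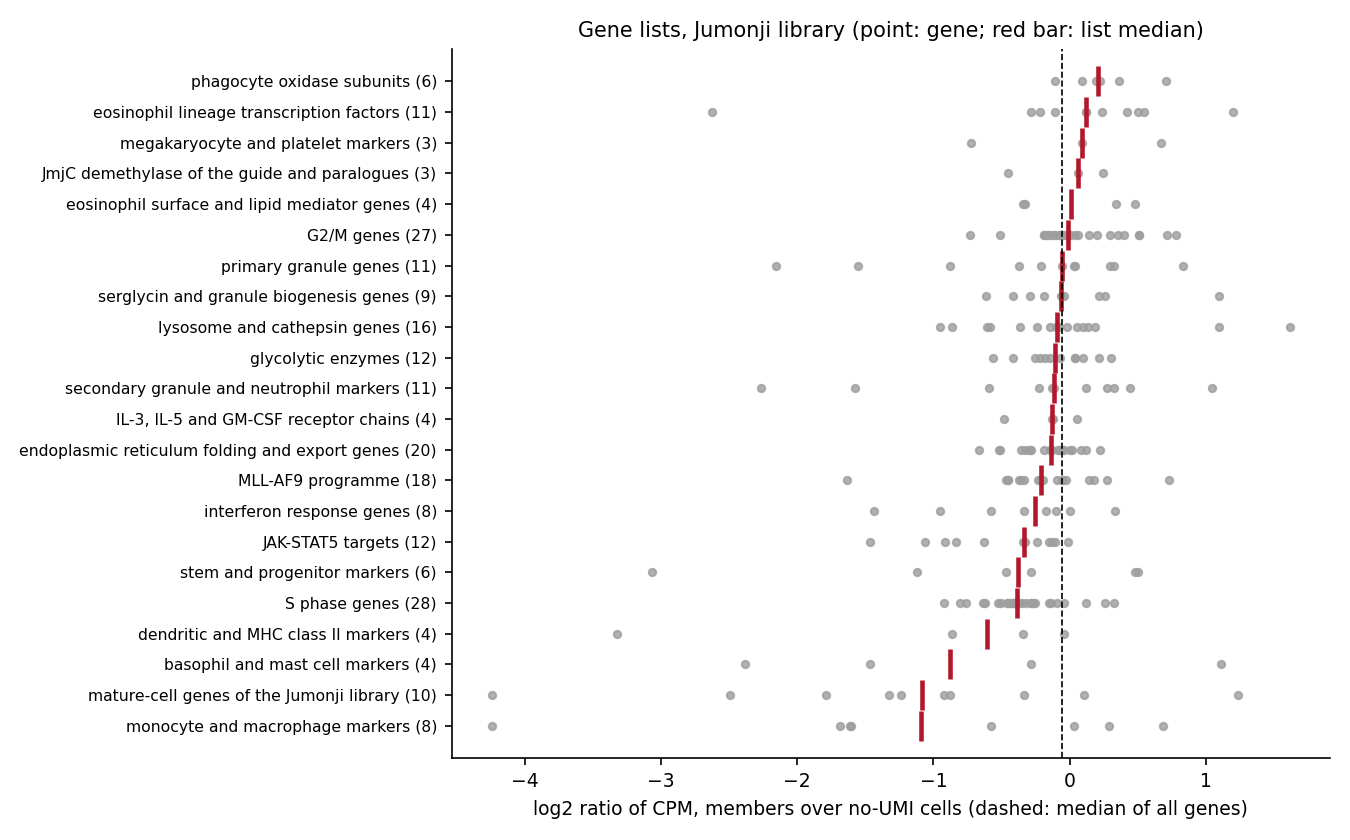
Log2 ratio of CPM, members over score-negative Jumonji cells, for each gene of the lists with at least 3 genes of 50 or more UMIs (number in brackets); the bar is the list median and the dashed line the median of all genes, -0.05. Monocyte and macrophage markers lie lowest, at -1.09, and no list median exceeds 0.21.

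The same rule in the Renilla library, which had no part in the choice, gave 72 cells with weaker scores. Their median score was 114 CPM, from 72.0 to 1907 CPM, and 5 of them rested on 1 UMI. Prg3 had a UMI in 66 of the 72, Prg2 in 16 and Epx in 20. A score UMI was found in 214 of 608 Renilla cells, or 35.2% (31.4% to 39.1%), and in 215 of 575 Jumonji cells, or 37.4% (33.4% to 41.5%). At 10000 UMIs per cell the shares were 20.4% (17.2% to 23.9%) and 24.8% (21.2% to 28.8%), so the intervals overlapped. Epx, with or without the other genes, was in 3.63% (2.26% to 5.49%) of Renilla and 8.85% (6.55% to 11.6%) of Jumonji cells. Prg3 was in 16.1% of Renilla and 19.0% of Jumonji cells at the same depth. Ear6 had 0 UMIs in both groups of Renilla cells.

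The 72 Renilla cells were compared with the 394 Renilla cells that had no score UMI. Of 6946 genes, 12 (0.173%) were 2-fold higher and 60 (0.864%) lower. Of the 21 genes higher in the Jumonji members, 19 had at least 50 Renilla UMIs: 17 were above 0 there, 10 at least 1.5-fold, and none was 1.5-fold lower. Of the 131 lower genes 109 could be compared: 83 were below 0, 37 at least 1.5-fold, and 4 were 1.5-fold higher. Beside this, 3.02% of Renilla genes with 50 UMIs were 1.5-fold higher and 6.64% lower.

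Ctsh had 115 CPM in the Renilla members against 42.0 CPM, a log2 ratio of 1.45 (1.18 to 1.70). Cebpe was at 523 against 341 CPM (0.62, 0.50 to 0.73), Cd63 at 0.66 (0.57 to 0.74), Hdc at 0.73 (0.51 to 0.95) and Ctse at 1.13 (0.20 to 2.0). Irf8 was lower, at 14.2 against 48.6 CPM (-1.77, -2.44 to -1.17), Hpgd at -1.30 (-1.55 to -1.05), Mpo at -0.68 (-0.80 to -0.56) and Ctsg at -0.80 (-0.93 to -0.67). Of 8 secondary granule and neutrophil genes measured in the Renilla library, 5 were at least 1.5-fold higher in its members and none lower. Their summed level rested on few cells: its median was 339 CPM per Renilla member and 361 CPM per Renilla score-negative cell, while 1 member reached 39144 CPM. Ngp stood at 2.76 (2.42 to 3.11) and S100a9 at 2.33 (2.05 to 2.60), beside 1.05 and -0.12 in the Jumonji cells. Whether these values differ between the libraries was not tested, since each is 1 library.

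In depth, members were close to score-negative cells. They had a median of 20697 UMIs and 4006 genes, score-negative cells 19763 UMIs and 3934 genes, and the cells between 26442 UMIs and 4506.5 genes. The groups held 1481725, 7384023 and 3943913 UMIs. The median mitochondrial share was 2.45% in members and 2.77% in score-negative cells. A doublet caller, Scrublet, marked 4 of 575 Jumonji cells (0.696%), 1 of them a member. The libraries shared no barcode.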

How the data were processed

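Single-cell RNA was measured in 2 libraries, 1 per guide. The deposited files hold raw UMI counts per gene and cell barcode, made with Cell Ranger 1.3.1 on mm10, per the submitters' processing notes. A barcode entered if it held 500 or more genes and its mitochondrial UMIs did not exceed 10%. Kept Jumonji cells held 3762 to 61411 UMIs and kept Renilla cells 4387 to 55220.

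UMIs were summed per group. Ratios of CPM carry exact conditional binomial intervals, levels exact Poisson and shares exact Clopper-Pearson intervals, all at 95% (Python 3.11.15, numpy 2.4.6, scipy 1.17.1, pandas 2.3.3). A count of 0 was set to 3 counts over the group for a bound. Thinning drew 10000 UMIs per cell; doublets were marked with Scrublet in scanpy 1.11.5 and kept. The procedure was tested on simulated data. Positions come from GENCODE M21, which matched 27645 of 27998 gene IDs. Of 4 genes with a promoter entry in RefSeq, 3 are printed.

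Named were the score genes, every gene of the eosinophil lists, the 12 higher and 12 lower genes with at least 100 UMIs whose interval bound nearest to 0 was farthest from it, the 2 highest and 2 lowest of each other list with at least 50 UMIs, and Jmjd1c. A few more list genes, chosen after their values were seen, are given as examples. Some genes that the rule names are not reported here. The members and lists were chosen with earlier results of these data known. Alternatives changed the member share, score genes, cell filter, depth, contrast cells and UMI minimum.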

Additional observations from a re-analysis of the deposited data

How the results depend on the processing

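No paired analysis was possible because each condition had 1 library. The number of genes at least 2-fold higher in members (21) was 33 with the top 6% of cells as members, 12 with cells thinned before the choice, 11 with members of at least 3 score UMIs, 6 without cells that held a Ctss UMI, 12 at matched depth, 58 with a minimum of 50 UMIs and 290 with a minimum of 1. The number lower (131) was 274 with the top 6%, 79 with the top 18%, 26 without cells that held Ctss, 58 at matched depth, 272 with a minimum of 50 UMIs and 724 with a minimum of 1. The Cebpe log2 ratio (1.20) was 1.05 and 1.07 with the top 6% and 18%, 0.85 thinned, 1.07 with at least 3 score UMIs, 0.84 and 0.98 with a score without Prg3 or without Epx, 0.96 against all other kept cells, 0.84 without cells that held Ctss and 0.98 at matched depth. Members with at least 2 score UMIs (69) numbered 34 with the top 6% and 35 at matched depth, where fewer cells were taken. The share of Renilla cells with a score UMI (35.2%) was 20.4% thinned, 12% without Prg3 and 30.1% without Epx. Among the named genes past 2-fold, Trib1 turned from 1.09 to -0.12 when thinned, on 3 UMIs in members, and BC100530 from 1.02 to -0.083 at matched depth. Other causes were not tested.

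Ear6 stayed between 1.44 and 2.51 under the 17 alternatives run for it. Of 39 named genes past 2-fold, those with a value kept their direction under each alternative, apart from 1 of 39 when thinned and 1 of 37 at matched depth. Without the highest-scoring cell or the 3 highest, choices added after the data were seen, all 39 stayed past 2-fold. Fewer did under other choices: 19 of 37 without cells that held Ctss, 23 of 39 with a score without Prg3, 24 of 37 at matched depth and 26 of 39 when thinned. Over the alternatives the log2 ratio ran from -4.99 to -2.02 for Irf8, -4.02 to -2.01 for Hpgd, -4.71 to -1.97 for Ctss, -3.18 to -1.34 for Dab2, -2.65 to -1.14 for Ctsg, 1.10 to 1.74 for Ctsh and 0.56 to 1.48 for Ccl6. Members' 1481725 UMIs limit genes of a few CPM, where 0 UMIs allow up to 2.02 CPM with 0 set to 3 counts.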
